A study of Mus musculus with 18 samples.

Results

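A set of 10 genes of the endothelium, the cell layer that lines blood vessels, was followed through tibialis anterior (TA) muscle of tumour-bearing mice. They are the SoxF transcription factors Sox7, Sox17 and Sox18, the receptors Tek, Tie1, Eng, Kdr and Flt1, and the 2 endothelial content markers Pecam1 and Cdh5. These 10 genes were taken by symbol from 29456 genes with a count, of which 16096 had enough counts to be tested, and all 10 were among those. They were selected on the difference in gene counts between each tumour group and its own control, so those differences are given below as a description, and no test is read from them.

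Muscle was taken when the mice had reached endpoint, from 5 cachexia models, cachexia being the wasting of muscle that accompanies cancer. Tumour-bearing muscles came from C57BL/6 mice given LLC lung carcinoma cells by the intramuscular route, C57BL/6 mice with 1000 KPCML1 cells or 50000 KPC cells placed orthotopically, CD2F1 mice with C26 colon carcinoma cells under the skin, and C57BL/6 mice of the genetic KPP model, in which tamoxifen starts the tumour. Their controls were C57BL/6 mice given PBS (LLC), C57BL/6 mice given Matrigel only (shared by KPCML1 and KPC), CD2F1 mice given PBS (C26), and KPP mice without a tumour. Each of the 9 groups holds 2 libraries labelled as biological replicates, so 2 values stand behind each mean. The labels do not give the alleles of the KPP mice, whether their controls had tamoxifen, the muscle that LLC cells were put into, or the age or sex of the mice. Since the KPCML1 and KPC groups share the Matrigel controls, their differences from those controls are not independent of each other.

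The SoxF factors are closely related DNA-binding proteins that act partly in place of one another in the formation of arteries, veins and lymphatic vessels. Kdr (VEGFR2) is the main signalling receptor for vascular endothelial growth factor A, and Flt1 (VEGFR1) binds the same ligand tightly while signalling weakly, so that it limits what reaches Kdr. Tek (Tie2) is the receptor for angiopoietins, Tie1 is its partner without a well-defined ligand of its own, and Eng (endoglin) is a co-receptor that presents BMP9 to the kinase ALK1. Pecam1 and Cdh5 (VE-cadherin) are proteins of the contacts between endothelial cells and are widely used to gauge how much endothelium a sample holds.

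The libraries held 22432866 to 36471404 fragments in matched genes. Levels are given as CPM, counts scaled to the size of the TMM-scaled library, and differences as log2 tumour minus control with the standard error (SE) of a fit by edgeR to all 18 libraries. A gene counts as past the threshold when its Benjamini-Hochberg adjusted p over all 16096 genes is under 0.05. The 2 KPC muscles stood apart from each other: replicate 2 lay above replicate 1 for 10 of 10 genes, by 1.11-fold to 4.12-fold with a median of 1.95-fold, so several KPC values are also given as fitted without 1 library. In no other group did the median fold between replicates of these genes exceed 1.46. In whole muscle, fewer endothelial cells and less RNA per endothelial cell cannot be told apart.

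In control muscle all 10 genes were well expressed, and their levels are compared in TPM, a scale that corrects for transcript length. Over the 8 control libraries the median level was 17.0 TPM for Pecam1, 11.3 for Cdh5, 8.72 for Eng, 8.46 for Flt1, 8.16 for Sox17, 7.75 for Tie1, 6.51 for Sox18, 5.26 for Kdr, 4.24 for Tek and 1.66 TPM for Sox7. Neighbours in this order overlapped in range, except that Sox7, at 0.835 to 1.97 TPM, lay below every Tek value, at 2.98 to 6.02 TPM. The controls were also compared with one another, a contrast that had no part in choosing the genes. Between CD2F1 and C57BL/6 controls the log2 difference ran from -0.34 (Tek) to 0.24 (Flt1), and 0 of 10 genes passed the threshold in edgeR, with 0 at an unadjusted p under 0.05 and 0 in DESeq2, against 2.30% of all tested genes higher and 1.65% lower in CD2F1. Among the 3 C57BL/6 control groups, 0 of 10 passed the joint edgeR test, against 0.124% of all genes. Sox7, with an unadjusted p of 0.0128, and Tek, with 0.0404, were the 2 below an unadjusted 0.05; their adjusted p-values were 0.397 and 0.576, and DESeq2 was not run on this joint contrast. Strain, injected vehicle and experiment cannot be told apart in these contrasts.

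In KPP muscle the whole set was low, while in the other 4 models the genes differed in direction. Both KPP tumour libraries lay below both controls for 10 of 10 genes, 9 of them past the threshold (all but Sox17), and the median log2 difference was -2.06, against -0.04 over all genes. In the KPP comparison 19.3% of all tested genes were called lower. The share of all genes whose KPP libraries lay below both controls is not given. Nothing is read from the counts of 10 and 9, since this contrast chose the genes. In KPC muscle 1 gene was called higher (Sox17) and 2 lower (Sox7, Sox18), where 15.3% of all genes were called higher and 13.7% lower. In KPCML1 and in C26 muscle Sox7 was the 1 gene called, lower in both; the share of all genes called lower was 4.38% in KPCML1 and 9.80% in C26. In LLC muscle no gene was past the threshold, where 7.39% of all genes were called higher and 6.23% lower. The median log2 difference over the 10 genes was 0.14 in LLC, 0.06 in KPCML1, -0.24 in KPC and -0.13 in C26.

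**Figure D1:**
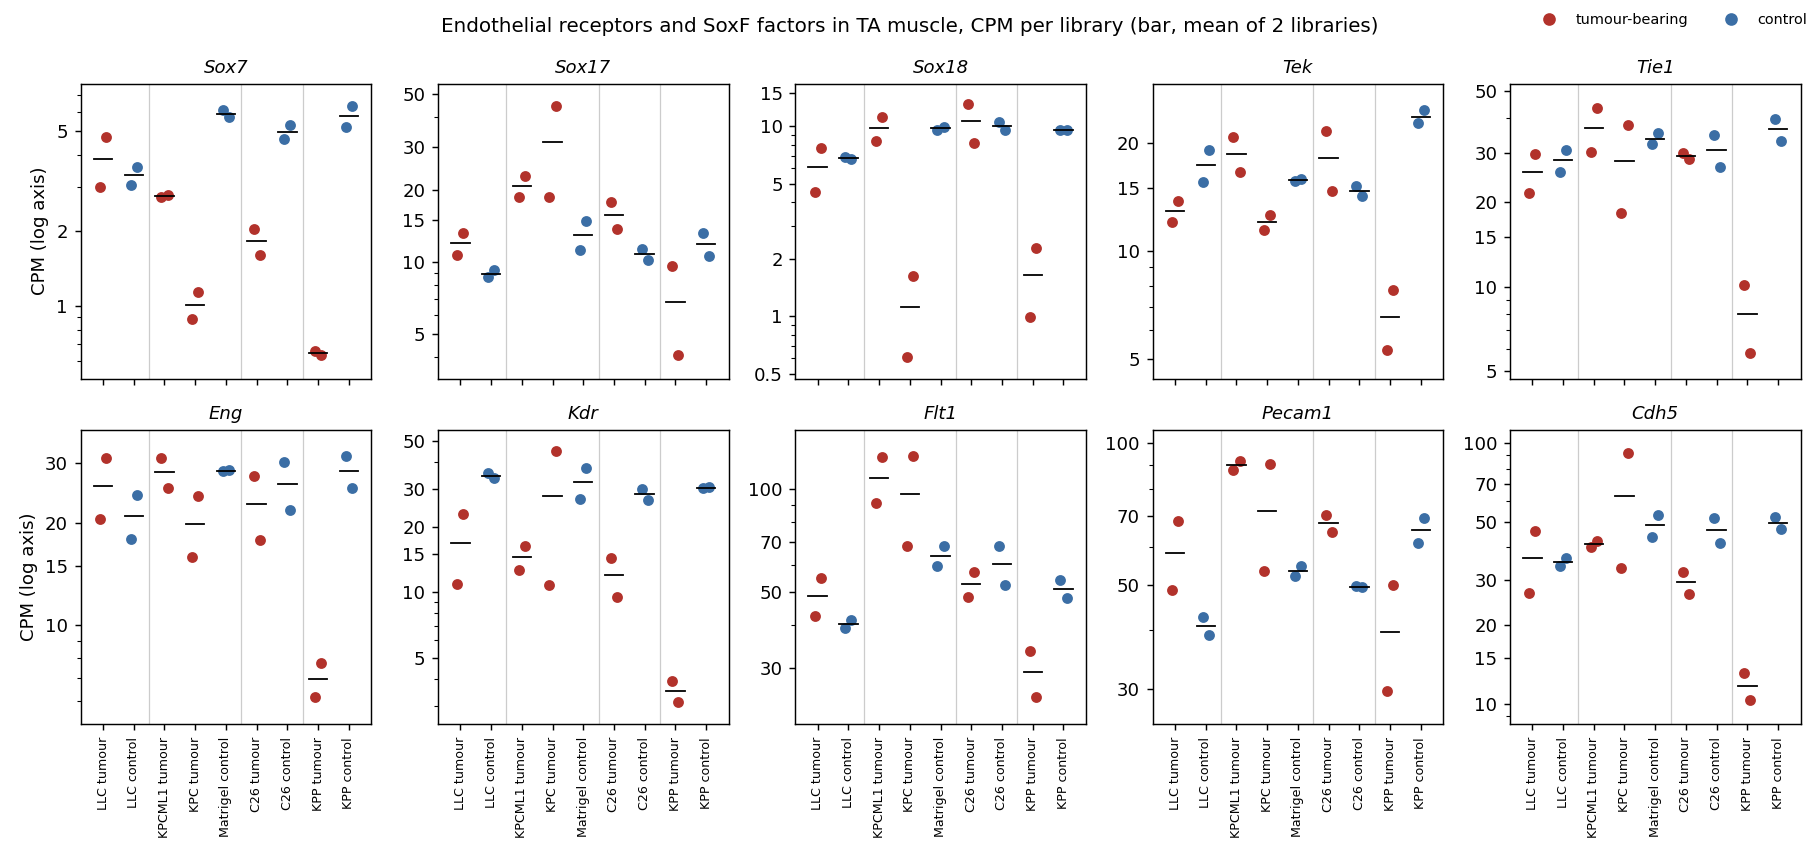
Level of each of the 10 genes in every library, in CPM on a log axis, by group, with tumour-bearing muscles in red, controls in blue and a bar at the mean of the 2 libraries. KPP tumour muscles lie below their controls in all 10 panels, and the 2 KPC muscles lie far apart for Kdr (10.8 and 44.7 CPM) and Cdh5 (33.3 and 92.1 CPM).

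Sox7 was low in 4 of the 5 models. It stood at 0.661 and 0.636 CPM in KPP tumour muscle, against 5.20 and 6.29 CPM in KPP controls, a log2 difference of -3.14 ± 0.29 (SE, n = 2 each). In KPC muscle it stood at 0.883 and 1.14 CPM, against 6.06 and 5.70 CPM in Matrigel controls, a difference of -2.54 ± 0.28. In both models every tumour library lay several-fold below every control, although only 16 to 32 fragments per library stand behind the tumour values. In C26 muscle Sox7 was at 2.03 and 1.60 CPM, against 4.65 and 5.29 CPM in C26 controls (-1.45 ± 0.27), and in KPCML1 muscle at 2.72 and 2.78 CPM, against the same Matrigel controls (-1.10 ± 0.26). The LLC muscles, at 2.98 and 4.76 CPM, overlapped their controls at 3.06 and 3.61 CPM. The call in KPP, KPC and C26 held in 18 of 18 fits that left out 1 library, and that in KPCML1 in 14, being lost without either KPCML1 library or either Matrigel control.

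Sox18, whose loss of function disturbs lymphatic and hair follicle development in mouse, was low in KPC and KPP muscle and near control levels elsewhere. It stood at 0.609 and 1.63 CPM in KPC muscle, against 9.60 and 9.93 CPM in Matrigel controls (log2 -3.13 ± 0.45). In KPP tumour muscle it was at 0.991 and 2.30 CPM, against 9.59 and 9.59 CPM in KPP controls (-2.51 ± 0.43). Both calls held in 18 of 18 fits leaving out 1 library, and without KPC replicate 2 the KPC difference was -4.05. In KPCML1 muscle, which was set against the same Matrigel controls, Sox18 was at 8.33 and 11.2 CPM, a difference of 0.00 ± 0.39 whose libraries span the controls. C26 muscle, at 13.1 and 8.17 CPM, also spanned its controls at 10.6 and 9.56 CPM (0.08 ± 0.39), and so did LLC muscle, at 4.49 and 7.73 CPM against 6.88 and 6.76 CPM in LLC controls (-0.16 ± 0.40).

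Sox17, which marks arterial endothelium, lay above its controls in 4 models and below them in KPP. In KPC muscle it stood at 18.6 and 44.5 CPM, against 11.2 and 14.8 CPM in Matrigel controls, a log2 difference of 1.28 ± 0.38. That call rests on KPC replicate 2: without it the difference was 0.47 and not called, and the call was also lost without either Matrigel control. Both tumour libraries also lay above both controls in KPCML1 (18.7 and 22.7 CPM, 0.67 ± 0.38), in C26 (17.7 and 13.7 CPM, against 11.3 and 10.2 CPM in controls, 0.54 ± 0.38) and in LLC (10.7 and 13.2 CPM, against 8.66 and 9.21 CPM in controls, 0.42 ± 0.39), none of them past the threshold. KPP tumour muscle held 9.58 and 4.09 CPM, against 13.2 and 10.6 CPM in KPP controls (-0.81 ± 0.39). That KPP difference was -1.54 and called without KPP tumour replicate 1, and -0.25 and not called without replicate 2.

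Sox17 made up more of the SoxF trio in tumour than in control muscle in all 5 models. Its share was 95.03% and 95.40% of the TPM of the 3 factors in KPC muscle, against 49.8% and 55.0% in Matrigel controls. In KPCML1 muscle the share was 66.8% and 66.5%. In KPP tumour muscle it was 88.7% and 61.2%, against 53.9% and 47.8% in KPP controls. LLC muscle had 63.8% and 59.8%, against 53.3% and 53.4% in LLC controls, and C26 muscle 58.0% and 61.5%, against 49.0% and 48.2% in C26 controls. In each of the 5 models both tumour libraries lay above both controls in this share. The summed TPM of the 3 factors was 14.5 and 32.1 in KPC muscle, against 17.7 and 18.4 in Matrigel controls, so those ranges overlap, and 7.50 and 5.04 in KPP tumour muscle, against 20.2 and 13.4 in KPP controls, so those do not. Across the 18 libraries, each set against the control mean of its own experiment, Sox7 and Sox18 followed each other (Pearson r = 0.83), whereas Sox17 followed neither (r = 0.04 with Sox7 and 0.01 with Sox18); these are descriptions over libraries that share controls.

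**Figure D2:**
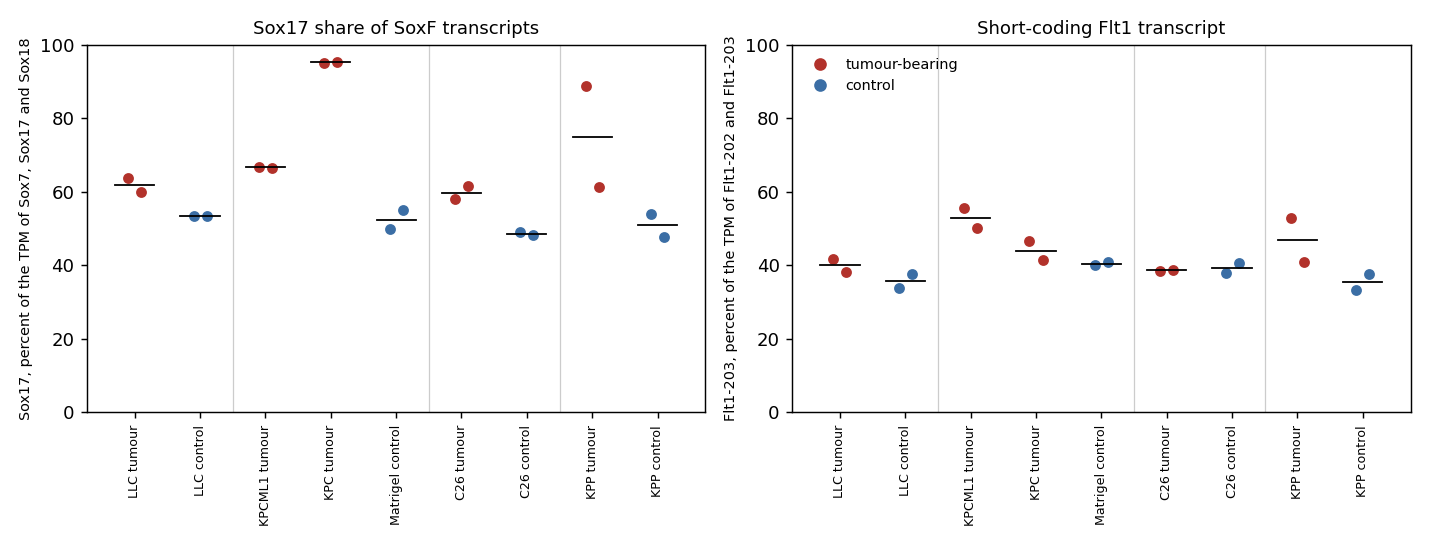
Left, Sox17 as a percentage of the summed TPM of Sox7, Sox17 and Sox18 in each library; right, the short-coding Flt1 transcript as a percentage of the TPM of the short-coding and long-coding transcripts. Points are libraries, red for tumour-bearing and blue for control muscle, with a bar at the mean of 2; both KPC points on the left lie at 95.03% and 95.40%, above the Matrigel controls at 49.8% and 55.0%.

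Tek was well below its controls in KPP muscle and closer to them elsewhere. It stood at 5.28 and 7.78 CPM in KPP tumour muscle, against 22.8 and 24.7 CPM in KPP controls, a log2 difference of -1.86 ± 0.23 that was called in 18 of 18 fits leaving out 1 library. In KPC muscle Tek was at 11.4 and 12.6 CPM, against 15.7 and 15.9 CPM in Matrigel controls (-0.40 ± 0.22), and in LLC muscle at 12.1 and 13.8 CPM, against 15.6 and 19.2 CPM in LLC controls (-0.43 ± 0.22). In both of these the tumour libraries lay below the controls without passing the threshold, although the KPC difference was -0.75 and called with counts scaled by transcript length. KPCML1 muscle was slightly above its controls, at 20.8 and 16.7 CPM (0.24 ± 0.22), a direction that turned to -0.13 under that scaling, and C26 muscle at 21.6 and 14.7 CPM overlapped controls at 15.2 and 14.2 CPM (0.30 ± 0.22).

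The promoter of Tek is shown because it is the one of 5 available member promoters that holds the letters a SOX protein recognises. RefSeq sequences on GRCm38.p6 were found for 5 of the 10 genes (Eng, Tek, Tie1, Kdr, Flt1), and the 250 bases before each start were searched on both strands for AACAAT and AACAAAG (SOX), CCGGAA and AGGAAG (ETS), GGGCGG (GC box) and GTAAACA (FOX). The Tek window lies at chr4:94739039-94739288 on the plus strand, and its capitals mark AACAAT (read on the other strand as ATTGTT), starting 63 bases before the start, and AACAAAG, starting 27 bases before it.
Tek: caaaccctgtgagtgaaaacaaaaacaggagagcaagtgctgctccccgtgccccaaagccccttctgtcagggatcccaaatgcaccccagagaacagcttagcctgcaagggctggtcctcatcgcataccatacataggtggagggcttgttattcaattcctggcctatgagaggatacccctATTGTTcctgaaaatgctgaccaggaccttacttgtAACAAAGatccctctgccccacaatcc
AACAAT occurs in 9.42% and AACAAAG in 5.03% of 32851 mouse promoter windows of this length, and neither was found in the windows of Eng, Tie1, Kdr or Flt1. A match is a string of letters and shows no binding. The FOX letters, present in 3.17% of windows, were in none of the 5.

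Tie1, like Tek, was called in KPP muscle and in no other. KPP tumour muscle held 10.2 and 5.78 CPM, against 39.5 and 33.2 CPM in KPP controls, a log2 difference of -2.2 ± 0.34 called in 18 of 18 fits leaving out 1 library. In the other 4 models the tumour libraries overlapped their controls, with log2 differences of -0.13 ± 0.32 in LLC, 0.13 ± 0.32 in KPCML1, -0.27 ± 0.32 in KPC and -0.07 ± 0.32 in C26. The KPC value changed sign with the library, being 0.22 without replicate 1 and -0.94 without replicate 2. Across the 18 libraries Tie1 and Tek had r = 0.86.

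The ligands of Tek were read from a list that shares no gene with the 10, and these tests did not choose the members. The list was made with earlier results of these same libraries known, so its tests are not independent of them. Angpt1, the angiopoietin that activates Tek, fell in KPC and in KPP muscle. It stood at 3.63 and 5.15 CPM in KPP tumour muscle, against 12.7 and 17.3 CPM in KPP controls (log2 -1.77 ± 0.36, edgeR adjusted p = 0.00195), and at 7.22 and 3.80 CPM in KPC muscle, against 12.3 and 16.2 CPM in Matrigel controls (-1.36 ± 0.35, adjusted p = 0.011), where the call was lost without KPC replicate 2 or Matrigel control replicate 2. All tumour libraries lay below all their controls in the other 3 models too, at -0.66 ± 0.34 in LLC, -0.67 ± 0.34 in KPCML1 and -0.91 ± 0.34 in C26, without passing the threshold. Angpt2, which competes with Angpt1, passed in none of the 5 comparisons, with log2 differences of -0.55 to 0.70. Ptprb (VE-PTP), the phosphatase that restrains Tek, fell in KPP muscle (-1.51 ± 0.26, adjusted p = 0.00066) and differed among the 5 models in the joint test (adjusted p = 0.048). Of the 3 tested genes of this list, 2 fell in KPP and 1 in KPC, where 19.3% and 13.7% of all genes were called lower. Angpt4 had too few counts to be tested.

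Eng, the BMP co-receptor, was low in KPP and close to its controls elsewhere. It stood at 6.15 and 7.72 CPM in KPP tumour muscle, against 31.6 and 25.5 CPM in KPP controls, a log2 difference of -2.04 ± 0.29 called in 18 of 18 fits leaving out 1 library. In KPC muscle it was at 15.9 and 24.0 CPM, below Matrigel controls at 28.5 and 28.6 CPM (-0.52 ± 0.28), without passing the threshold; leaving out 1 library gave -0.90 to -0.19. The other 3 models overlapped their controls, at 0.29 ± 0.28 in LLC, -0.01 ± 0.28 in KPCML1 and -0.20 ± 0.28 in C26.

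Of the 17 tested genes of the BMP9, ALK1 and endoglin pathway, 4 fell and 3 rose in KPP muscle, 2 fell and 6 rose in KPC, 1 fell and 2 rose in C26, and in LLC 3 and in KPCML1 1 rose and 0 fell. In KPP these are 23.5% lower and 17.6% higher, against 19.3% and 17.4% of all genes, so they lie near the background. In C26 they are 11.8% higher, against 11.5%, and 5.88% lower, against 9.80%. In KPC 35.3% were higher and 11.8% lower, against 15.3% and 13.7% of all genes. In LLC 17.6% were higher, against 7.39%, and in KPCML1 5.88%, against 4.16%. The median log2 difference of the 17 genes in KPP was -0.25, against -0.04 over all genes. Acvrl1, which encodes ALK1, the kinase that Eng serves, fell to 3.14 and 3.51 CPM in KPP tumour muscle, against 12.6 and 10.9 CPM in KPP controls (-1.82 ± 0.26, edgeR adjusted p = 0.00021). It also fell in KPC muscle (-0.93 ± 0.25, adjusted p = 0.013), a call lost without KPC replicate 2 or either Matrigel control, and differed among models (adjusted p = 0.014). Bmp6, a ligand made by endothelium, fell in KPP (-1.80 ± 0.35), and Smad6, an inhibitor of BMP signalling, fell in C26 (-1.16 ± 0.28, in 15 of 18 fits leaving out 1 library) and KPP (-1.09 ± 0.29, in 16). Tgfbr1, the type I receptor for TGF-beta on many cell types, rose in LLC (1.39 ± 0.21), KPC (1.09 ± 0.21), C26 (1.25 ± 0.21) and KPP (1.09 ± 0.21), each in 18 of 18 fits leaving out 1 library. The BMP target genes Id1, Id2 and Id3 passed in none of the 5 models.

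Kdr was below its controls in 4 models and split by library in the fifth. In KPP tumour muscle it stood at 3.88 and 3.12 CPM, against 30.2 and 30.4 CPM in KPP controls (log2 -3.12 ± 0.52), called in 18 of 18 fits leaving out 1 library. Smaller differences stood in 3 other models. LLC muscle held 10.9 and 22.9 CPM, against 35.4 and 33.6 CPM in LLC controls (-1.03 ± 0.47), and C26 muscle 14.4 and 9.54 CPM, against 29.9 and 26.7 CPM in C26 controls (-1.24 ± 0.48). KPCML1 muscle held 12.7 and 16.2 CPM, against 26.9 and 37.3 CPM in Matrigel controls (-1.15 ± 0.48). In none of these 3 models did the libraries overlap, yet none passed the threshold in the fit to all 18 libraries. The 2 KPC muscles, at 10.8 and 44.7 CPM, lay on either side of the Matrigel controls, so the difference was -0.21 ± 0.47, turning to -1.62 and called without replicate 2 and to 0.54 without replicate 1. Leaving out either KPC library also brought the LLC, KPCML1 and C26 differences past the threshold. The authors' deposited tables called Kdr lower in these 3 models. Since these contrasts chose the genes, no test is read from either.

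Flt1 lay above its controls in LLC, KPCML1 and KPC muscle, overlapped them in C26 and lay below them in KPP. In KPCML1 muscle it was at 91.1 and 124 CPM and in KPC muscle at 68.4 and 125 CPM, against 59.4 and 68.4 CPM in Matrigel controls, with log2 differences of 0.75 ± 0.27 in KPCML1 and 0.60 ± 0.26 in KPC. The lower KPC value and the higher control value are equal to the digits given. LLC muscle, at 42.4 and 54.8 CPM, was also above its controls at 39.3 and 41.4 CPM (0.27 ± 0.27), and C26 muscle overlapped its controls (-0.19 ± 0.26). None of these 4 passed the threshold, and the KPC difference was 1.03 and called without KPC replicate 1 and 0.04 without replicate 2. In KPP tumour muscle Flt1 was at 33.6 and 24.7 CPM, against 54.1 and 48.0 CPM in KPP controls (-0.81 ± 0.27), a call held in 9 of 18 fits leaving out 1 library. The ratio of Flt1 to Kdr in TPM was 7.58 and 7.0 in KPP tumour muscle, against 1.60 and 1.39 in KPP controls, and 6.52 and 6.86 in KPCML1 muscle, against 2.0 and 1.65 in Matrigel controls. It was 3.48 and 2.15 in LLC muscle, against 0.996 and 1.12 in LLC controls, 3.02 and 5.29 in C26 muscle, against 2.10 and 1.76 in C26 controls, and 5.79 and 2.54 in KPC muscle. In all 5 models both tumour libraries were above both controls in this ratio.

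**Figure D3:**
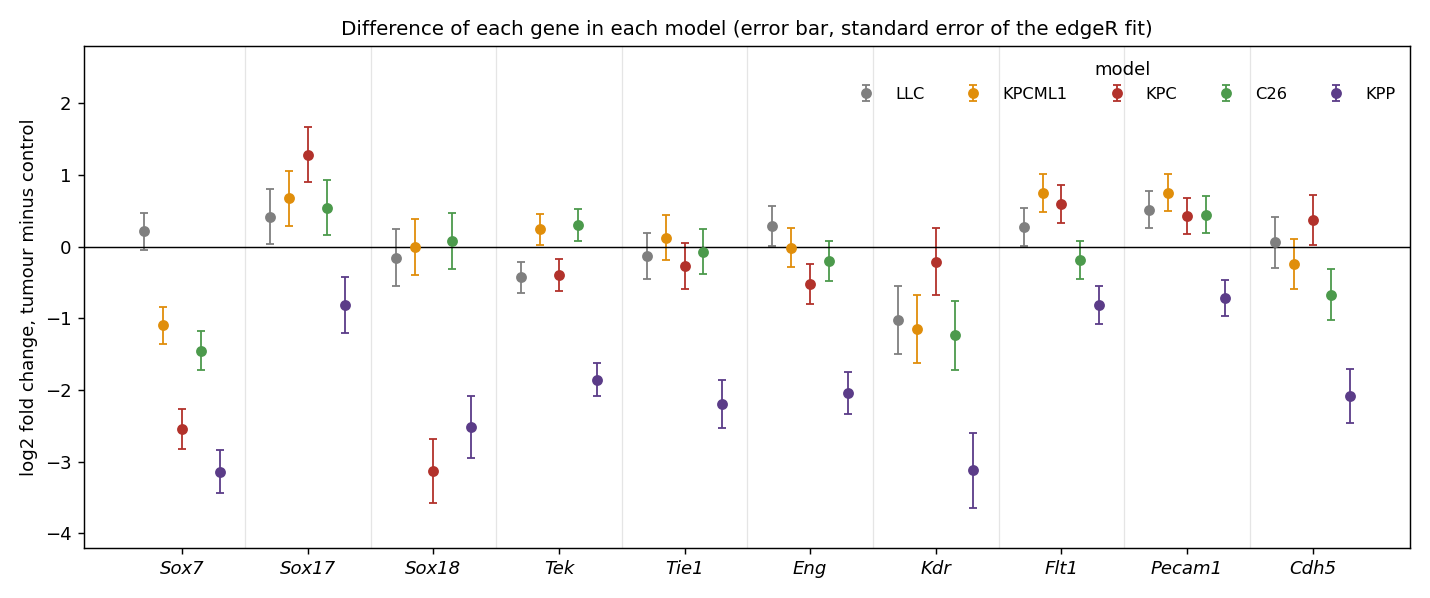
Log2 fold change, tumour minus control, of each of the 10 genes in each of the 5 models, with bars for the standard error of the edgeR fit (2 libraries a group). KPP values reach from -3.14 (Sox7) to -0.72 (Pecam1), and Sox17 is above 0 in the 4 other models while Kdr is below 0 in all 5.

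The promoters of the VEGF receptor pair are shown because Kdr and Flt1 lie on the same chromosome and differed in these muscles. Kdr is at chr5:75978456-75978705 and Flt1 at chr5:147726012-147726261, both on the minus strand of GRCm38.p6 (RefSeq). Capitals mark CCGGAA (written here as TTCCGG) and GGGCGG (written CCGCCC) in Kdr, and AGGAAG and GGGCGG (written CCGCCC) in Flt1.
Kdr: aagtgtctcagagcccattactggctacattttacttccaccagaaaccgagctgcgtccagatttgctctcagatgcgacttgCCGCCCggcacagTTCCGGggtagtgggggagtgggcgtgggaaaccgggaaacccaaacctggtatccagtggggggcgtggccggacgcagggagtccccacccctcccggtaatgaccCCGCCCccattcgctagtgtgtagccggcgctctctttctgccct
Flt1: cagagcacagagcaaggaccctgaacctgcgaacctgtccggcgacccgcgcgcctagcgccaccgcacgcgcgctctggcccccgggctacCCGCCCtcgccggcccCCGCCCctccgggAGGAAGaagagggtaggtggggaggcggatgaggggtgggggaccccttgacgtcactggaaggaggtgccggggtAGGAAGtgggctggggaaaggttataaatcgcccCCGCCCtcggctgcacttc
The Kdr window holds 1 CCGGAA, found in 12% of all windows, and 2 GGGCGG, found in 32.7%. The Flt1 window holds 2 AGGAAG, found in 29.5%, and 3 GGGCGG. The 2 windows thus share the GC box and differ in which of the 2 searched ETS strings they hold. Both strings contain GGAA, and no statement is made about which factor binds.

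Flt1 has a long-coding transcript that encodes the membrane receptor, and a short-coding one, of the kind known to encode a soluble receptor that traps ligand. Their coding sequences share 1972 bases and then part, the short-coding one ending after 92 bases of its own. Both are written 5′ to 3′ from 30 shared bases, in lower case, into the first 92 bases that differ, in capitals.
Flt1 short-coding: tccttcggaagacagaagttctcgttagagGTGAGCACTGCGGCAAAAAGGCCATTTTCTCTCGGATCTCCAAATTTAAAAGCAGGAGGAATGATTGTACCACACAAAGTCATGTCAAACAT
Flt1 long-coding: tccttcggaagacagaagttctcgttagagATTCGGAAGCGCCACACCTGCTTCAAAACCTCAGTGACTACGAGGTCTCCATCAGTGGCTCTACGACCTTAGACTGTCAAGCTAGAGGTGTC
The short-coding transcript made up 55.6% and 50.2% of the TPM of both in KPCML1 muscle, against 40.2% and 40.8% in Matrigel controls, and 52.7% and 40.9% in KPP tumour muscle, against 33.2% and 37.7% in KPP controls. It was 46.5% and 41.3% in KPC muscle, against the same Matrigel controls, and 41.8% and 38.2% in LLC muscle, against 34.0% and 37.6% in LLC controls. In these 4 models the tumour libraries lay above the controls without overlap. In C26 muscle it was 38.5% and 38.8%, between the C26 controls at 38.0% and 40.6%.

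Whether a member's leading transcript changed its share of the gene was tested for the 8 genes with more than 1 transcript, since shares within a gene did not choose the members. The share of the long-coding Flt1 transcript differed by -5.20 percentage points, tumour minus control, averaged over the 4 experiments (two-sided exact permutation test within experiments, p = 0.0231, Benjamini-Hochberg adjusted p = 0.185 over 8 tests). Both tumour libraries were below both controls in KPCML1, KPC and KPP muscle, overlapped them in LLC and were above them in C26. The adjusted p was 0.19 for the leading transcripts of Sox17 (5.50 points higher), Kdr (difference of -1.51 points) and Pecam1 (4.42 points higher), so 0 of 8 passed by this exact permutation test and 1 had an unadjusted p under 0.05. Leaving out LLC control replicate 2 brought these 4 genes past the threshold, with Sox17 at 7.60 and Pecam1 at 6.24 points. Salmon divides fragments among transcripts that share most of their sequence, so these shares are estimates.

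Among the VEGF ligands, Vegfa fell and Vegfd rose in all 5 models. Vegfa, the ligand of both Kdr and Flt1, stood at 98.5 and 97.8 CPM in KPP tumour muscle, against 237 and 271 CPM in KPP controls (log2 -1.37 ± 0.17, edgeR adjusted p = 9.1e-05). Its log2 difference was -1.20 ± 0.16 in LLC, -1.22 ± 0.17 in KPCML1, -1.24 ± 0.17 in KPC and -0.69 ± 0.16 in C26, and all tumour libraries were below all their controls. The calls held in 18 of 18 fits leaving out 1 library except in C26, where 16 held. Vegfd, which acts mainly on VEGFR3 in mouse, stood at 21.9 and 21.7 CPM in KPP tumour muscle, against 2.94 and 3.35 CPM in KPP controls (2.8 ± 0.40). It rose by a log2 of 2.58 ± 0.41 in LLC, 1.89 ± 0.40 in KPCML1, 3.28 ± 0.41 in KPC and 2.83 ± 0.40 in C26, the KPCML1 call being lost without KPCML1 replicate 2 or either Matrigel control. Neither gene differed among the models in the joint test, with adjusted p-values of 0.223 for Vegfa and 0.136 for Vegfd.

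The remaining VEGF ligands were called in fewer models. Vegfb fell in LLC (-0.81 ± 0.18, lost without any of the 4 LLC libraries) and C26 (-0.77 ± 0.18, lost without C26 control replicate 1), and Vegfc, the lymphatic growth factor, fell in KPP (-1.61 ± 0.55, in 12 of 18 fits leaving out 1 library). Pgf, a ligand of Flt1 that Kdr does not bind, rose in LLC (2.65 ± 0.73, in 15 of 18) and had values of 1.06 ± 0.70, 1.91 ± 0.69, 1.84 ± 0.67 and 0.39 ± 0.70 in KPCML1, KPC, C26 and KPP without passing. Nrp1, the co-receptor that strengthens VEGF binding to Kdr, fell in LLC (-0.86 ± 0.20), KPCML1 (-0.82 ± 0.19), KPC (-1.55 ± 0.20) and KPP (-2.12 ± 0.21); the C26 value was -0.55 ± 0.19. The LLC call of Nrp1 was lost without replicate 1 of either LLC group, and the KPCML1 call without either KPCML1 library or Matrigel control replicate 2. Its difference varied among models in the joint test (adjusted p = 0.013). Nrp2 (-1.45 ± 0.29) and Flt4 (VEGFR3, -1.17 ± 0.42) fell in KPP alone among the calls, that of Flt4 in 5 of 18 fits leaving out 1 library.

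The content markers did not move together. Pecam1 was at 87.8 and 91.9 CPM in KPCML1 muscle, against 52.0 and 54.7 CPM in Matrigel controls (log2 0.75 ± 0.26), and at 70.2 and 64.8 CPM in C26 muscle, against 49.6 and 49.4 CPM in C26 controls (0.45 ± 0.26). Cdh5 in these models was at 39.9 and 42.0 CPM in KPCML1, against 43.7 and 53.2 CPM in Matrigel controls (-0.24 ± 0.35), and at 32.1 and 26.4 CPM in C26, against 51.8 and 41.4 CPM in C26 controls (-0.67 ± 0.35). So Pecam1 lay above and Cdh5 below controls, with no overlap of libraries, in both. In LLC muscle Pecam1 was at 48.6 and 68.4 CPM, against 42.7 and 39.0 CPM in LLC controls (0.52 ± 0.26), and Cdh5 overlapped its controls (0.06 ± 0.35). In KPP tumour muscle Pecam1 stood at 29.6 and 49.8 CPM, against 61.4 and 69.4 CPM in KPP controls (-0.72 ± 0.26), called in 5 of 18 fits leaving out 1 library, and Cdh5 at 13.1 and 10.3 CPM, against 52.3 and 46.9 CPM in KPP controls (-2.08 ± 0.37), called in 18. In KPC muscle both depended on the library. Pecam1 had a log2 difference of 0.43 ± 0.25 that was 0.82 and called without replicate 1 and -0.05 without replicate 2. Cdh5 had a log2 difference of 0.37 ± 0.35 that was 0.99 and called without replicate 1 and -0.60 without replicate 2.

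The ratio of Pecam1 to Cdh5 in CPM was 2.25 and 4.82 in KPP tumour muscle, against 1.17 and 1.48 in KPP controls, 2.203 and 2.186 in KPCML1 and 2.188 and 2.450 in C26 muscle, against at most 1.19 in the controls of either. Any reading against content therefore depends on the marker, and the geometric mean of the 2 genes was used, with Cdh5, Emcn, Esam and Cldn5 as the other choice. That mean was 19.7 and 22.7 CPM in KPP tumour muscle, against 56.7 and 57.1 CPM in KPP controls, and in the other 4 models it ranged from 36.0 to 91.1 CPM, against 37.6 to 53.9 CPM in their controls.

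Relative to content, Kdr was low in all 5 models and Sox7 in 4. The log2 ratio of Kdr to content differed from controls by -1.38 in LLC, -1.40 in KPCML1, -0.81 in KPC, -1.16 in C26 and -1.70 in KPP, with no overlap of libraries in any of them, and it stayed below controls with the other content genes (-2.22 to -1.08). Sox7 differed by -1.35 in KPCML1, -2.84 in KPC, -1.35 in C26 and -1.71 in KPP, again without overlap, and by -0.07 with overlap in LLC. Sox18 differed by -3.58 in KPC and -1.24 in KPP, and by -0.46 in LLC and -0.27 in KPCML1, all without overlap; with the other content genes the LLC and KPCML1 values were -0.16 and -0.74. For these 3 genes the KPP difference was thus smaller relative to content than in CPM, and it kept its sign.

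Tek (-0.46), Tie1 (-0.81) and Eng (-0.61) kept a smaller log2 difference in KPP relative to content, and with the other content genes these were -0.99, -1.34 and -1.14. Flt1 in KPP was 0.60 relative to content and 0.07 with the other content genes; in CPM its difference (-0.81) lay between those of Pecam1 (-0.72) and Cdh5 (-2.08). Sox17 relative to content was above controls without overlap in KPCML1 (0.42), KPC (0.87) and C26 (0.65), but with the other content genes these values were -0.05, 0.16 and 0.03, a list in which Cldn5 rose in KPCML1 and KPC. Of the 8 non-marker genes, 6 were below, 1 above and 1 overlapped their controls in KPP relative to content, and 6 were below and 2 above in KPC. In LLC 4 were below and 4 overlapped, and in KPCML1 4 were below, 2 above and 2 overlapped. In C26 2 were below, 2 above and 4 overlapped. The share over all genes is not given. Nothing is read from these counts, since the content ratio was part of the rule that chose the genes. Within groups, the replicate with more content also had more Sox18 in 9 of 9 groups, more Kdr in 8 and more Sox7 or Flt1 in 5.

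**Figure D4:**
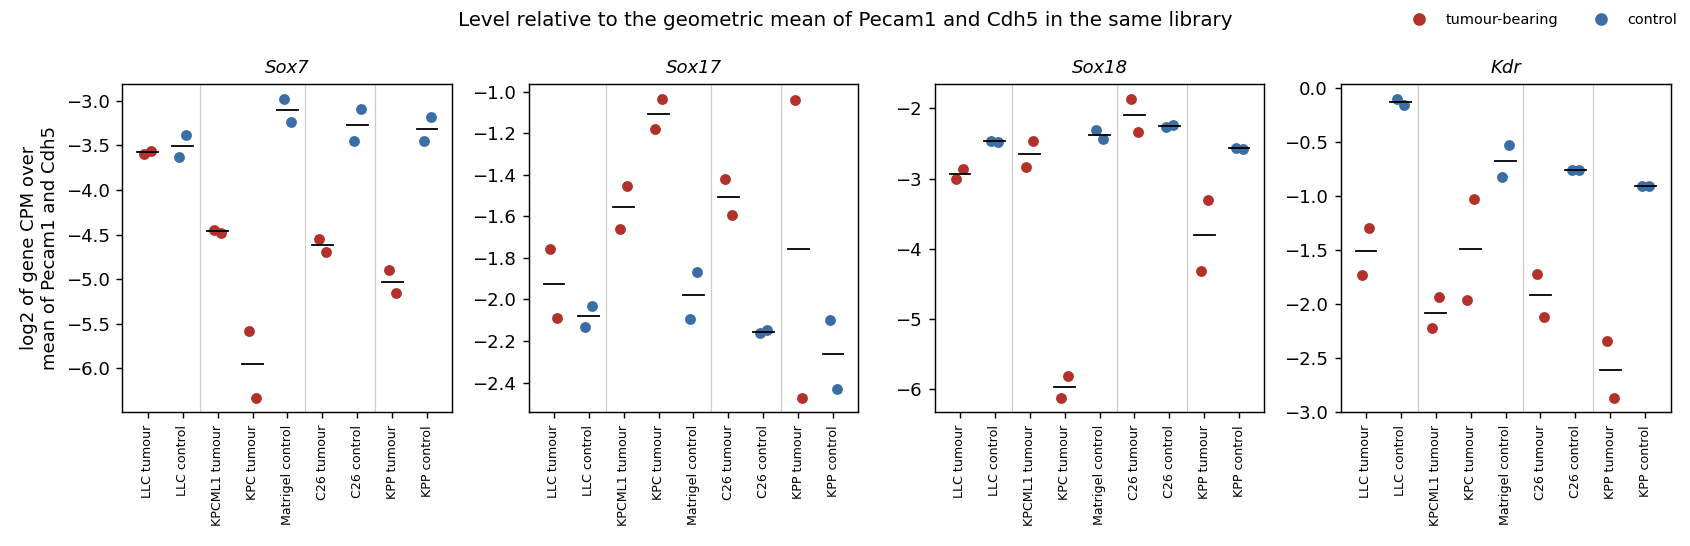
Log2 of the CPM of Sox7, Sox17, Sox18 and Kdr over the geometric mean of Pecam1 and Cdh5 in the same library, by group, red for tumour-bearing and blue for control muscle, with a bar at the mean of 2 libraries. Kdr lies lower in tumour than in control muscle in every model (differences of -0.81 to -1.70), and Sox18 by -3.58 in KPC and -1.24 in KPP.

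The wider endothelial lists, which hold none of the 10, had most of their lower calls in KPP. Over 98 tested vascular genes outside the 10, 43 fell and 9 rose in KPP muscle and the median log2 difference was -0.67. In KPC 22 fell and 22 rose (median 0.07), in C26 8 fell and 13 rose (-0.05), in LLC 5 fell and 10 rose (0.13) and in KPCML1 3 fell and 10 rose (0.25). As shares of the 98, 43.9% fell and 9.18% rose in KPP, against 19.3% and 17.4% of all genes, and 22.4% fell and 22.4% rose in KPC, against 13.7% and 15.3%. In C26 8.16% fell and 13.3% rose, against 9.80% and 11.5%, in LLC 5.10% fell and 10.2% rose, against 6.23% and 7.39%, and in KPCML1 3.06% fell and 10.2% rose, against 4.38% and 4.16%. The C26 shares lie near the background, and so do the lower shares in LLC and KPCML1. The joint test among the 5 models called 20 of the 98, against 8.30% of all genes.

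Of 20 endothelial surface and junction genes, 14 fell in KPP and 0 rose, with a median of -1.11. That is 70% lower, against 19.3% of all genes. The higher shares were 10% in LLC, 5% in KPCML1, 15% in KPC and 15% in C26. They lie near those of all genes, at 7.39%, 4.16%, 15.3% and 11.5%. Pcdh12 (VE-cadherin-2), a protocadherin of endothelial cells, stood at 0.041 and 0.091 CPM in KPP tumour muscle, against 5.59 and 5.44 CPM in KPP controls, and fell in LLC (-2.28 ± 0.44), KPC (-3.67 ± 0.50) and C26 (-2.64 ± 0.45), each in 18 of 18 fits leaving out 1 library. The Pcdh12 tumour values rest on 4 fragments in KPP and 19 in KPC. Aplnr, the apelin receptor, fell to 0.330 and 0.212 CPM in KPP tumour muscle, against 8.56 and 8.49 CPM in KPP controls (-4.98 ± 0.89). It also fell in KPC (-4.37 ± 0.86). Its tumour values rest on 15 fragments in KPP and 18 in KPC. In LLC (-1.83 ± 0.71), KPCML1 (-2.21 ± 0.73) and C26 (-1.61 ± 0.71) Aplnr also lay below its controls without overlap, and did not pass the threshold. Mmrn2, a matrix protein of the vessel wall, fell in KPP (-2.02 ± 0.24) and KPC (-0.66 ± 0.23, in 8 of 18 fits leaving out 1 library), and Jam2, a junction protein, in KPP (-1.76 ± 0.27) and KPC (-0.78 ± 0.26, in 10 of 18). Cldn5, the tight junction claudin of endothelium, rose in KPCML1 (2.63 ± 0.64) and KPC (3.54 ± 0.66), where 1 and 3 genes of this list rose. The KPCML1 call of Cldn5 was lost without KPCML1 replicate 2 or either Matrigel control. In C26 muscle 3 genes of this list rose and 1, Pcdh12, fell. S1pr1 rose in LLC, KPC and C26, in 13, 16 and 15 of 18 fits leaving out 1 library. Ecscr and Plvap rose in C26, in 18 and 17 of 18 such fits.

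Of 17 tested endothelial transcription factors, 7 fell in KPP and 1 rose, and 4 fell and 2 rose in KPC. In KPP 41.2% were lower and 5.88% higher, against 19.3% and 17.4% of all genes. In KPC 23.5% were lower and 11.8% higher, against 13.7% and 15.3%. Ets1 fell in KPC (-1.35 ± 0.26) and KPP (-2.14 ± 0.27), each in 18 of 18 fits leaving out 1 library, and in LLC (-1.01 ± 0.25), where the call was lost without any of the 4 LLC libraries. Its relative Elk3 fell in KPC (-1.37 ± 0.36, lost without KPC replicate 2) and KPP (-2.09 ± 0.37). Erg, an ETS factor that maintains endothelial identity, fell in KPP (-0.94 ± 0.23, edgeR adjusted p = 0.007) and stood at 0.15, -0.23, -0.64 and -0.27 in LLC, KPCML1, KPC and C26. Foxo1, which muscle fibres as well as endothelium express, rose in all 5, by 2.03 ± 0.55 in LLC, 1.83 ± 0.54 in KPCML1, 3.53 ± 0.57 in KPC, 1.89 ± 0.54 in C26 and 2.65 ± 0.56 in KPP. The calls of Foxo1 held in 18 of 18 fits leaving out 1 library in KPC and KPP, in 15 in LLC and C26, where they were lost without tumour replicate 2 or either control, and in 9 in KPCML1.

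Of 10 endothelial Notch genes, 5 fell and 0 rose in KPP, where 19.3% of all genes were called lower and 17.4% higher. Heyl, a Notch target that mural cells also express, fell to 0.826 and 0.666 CPM in KPP tumour muscle, against 6.72 and 6.79 CPM in KPP controls (-3.18 ± 0.40, edgeR adjusted p = 0.000104). Dll4, the Notch ligand of arterial and tip cells, fell in KPP (-1.52 ± 0.39, adjusted p = 0.0081), a call lost without KPP control replicate 1 or KPP tumour replicate 2, and had values of 0.55, 0.39, 0.24 and -1.04 in LLC, KPCML1, KPC and C26. Hes1 rose in LLC (0.93 ± 0.28) and KPC (1.14 ± 0.28), fell in C26 (-1.41 ± 0.29) and KPP (-1.21 ± 0.29), and differed among models (adjusted p = 0.0058). The C26 call of Hes1 held in 18 of 18 fits leaving out 1 library, whereas that in LLC was lost without any of the 4 LLC libraries, that in KPC without Matrigel control replicate 1 and that in KPP without KPP tumour replicate 1.

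Among 10 capillary transport genes, 5 fell and 1 rose in KPP, and 4 fell and 4 rose in KPC. Of all genes, 19.3% were called lower and 17.4% higher in KPP, and 13.7% and 15.3% in KPC. Cavin2, a caveola coat protein, fell to 11.5 and 12.0 CPM in KPP tumour muscle, against 67.8 and 74.3 CPM in KPP controls (-2.59 ± 0.25), and fell in KPC (-2.21 ± 0.25) and C26 (-1.06 ± 0.24), each in 18 of 18 fits leaving out 1 library. Cav1, its partner in caveolae, fell in KPP (-1.91 ± 0.26) and KPC (-1.34 ± 0.26), and the water channel Aqp1 fell in KPP (-1.38 ± 0.22). Cav2 and Fabp5 of this list were each called lower in 2 models. Cd36 was called higher in KPC and C26, in 18 and 15 of 18 fits leaving out 1 library. Car4 was called higher in KPCML1 and KPC, each in 15 of 18 such fits. Rgcc, a cell cycle regulator found in capillary endothelium, rose in KPCML1 (1.82 ± 0.45), KPC (2.58 ± 0.46), C26 (1.57 ± 0.45) and KPP (1.93 ± 0.45). Its C26 muscles stood at 42.5 and 162 CPM, against 37.1 and 31.5 CPM in C26 controls, and the call was lost without C26 tumour replicate 2 or either control; the KPCML1 call was lost without KPCML1 replicate 2 or either Matrigel control. Of 8 genes of activated endothelium and tip cells, 3 rose and 1 fell in KPP, in C26 and in KPCML1. These are 37.5% higher and 12.5% lower. Of all genes, 17.4% were higher and 19.3% lower in KPP, 11.5% and 9.80% in C26, and 4.16% and 4.38% in KPCML1. Apln, the apelin ligand, whose tumour values rest on 5 to 23 fragments a group in these models, fell in KPCML1 (-2.28 ± 0.44), KPC (-3.52 ± 0.48), C26 (-4.18 ± 0.53) and KPP (-3.35 ± 0.48), and in LLC it was at -0.22 ± 0.40; the KPCML1 call was lost without KPCML1 replicate 2. Lrg1, a secreted glycoprotein that acts on the TGF-beta pathway with Eng, rose in KPCML1 (1.99 ± 0.32), KPC (2.02 ± 0.32), C26 (1.96 ± 0.32) and KPP (1.17 ± 0.32), the KPCML1 call being lost without KPCML1 replicate 2 and the KPP call without KPP tumour replicate 1 or KPP control replicate 2. Of the same 8 genes, 3 rose and 2 fell in KPC, or 37.5% and 25%, against 15.3% and 13.7% of all genes. In LLC 1 rose and 0 fell, or 12.5% higher, against 7.39%. Ackr1 rose in KPCML1, KPC, C26 and KPP, in 14, 12, 14 and 15 of 18 fits leaving out 1 library. Icam1 rose in LLC, C26 and KPP, in 15, 15 and 16 such fits, and Vcam1 fell in KPC, in 15. Of 5 lymphatic genes, 1 (Reln, in KPC, 1.41 ± 0.46, in 15 of 18 fits leaving out 1 library) passed in any model. In KPC 15.3% of all genes were called higher.

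**Figure D5:**
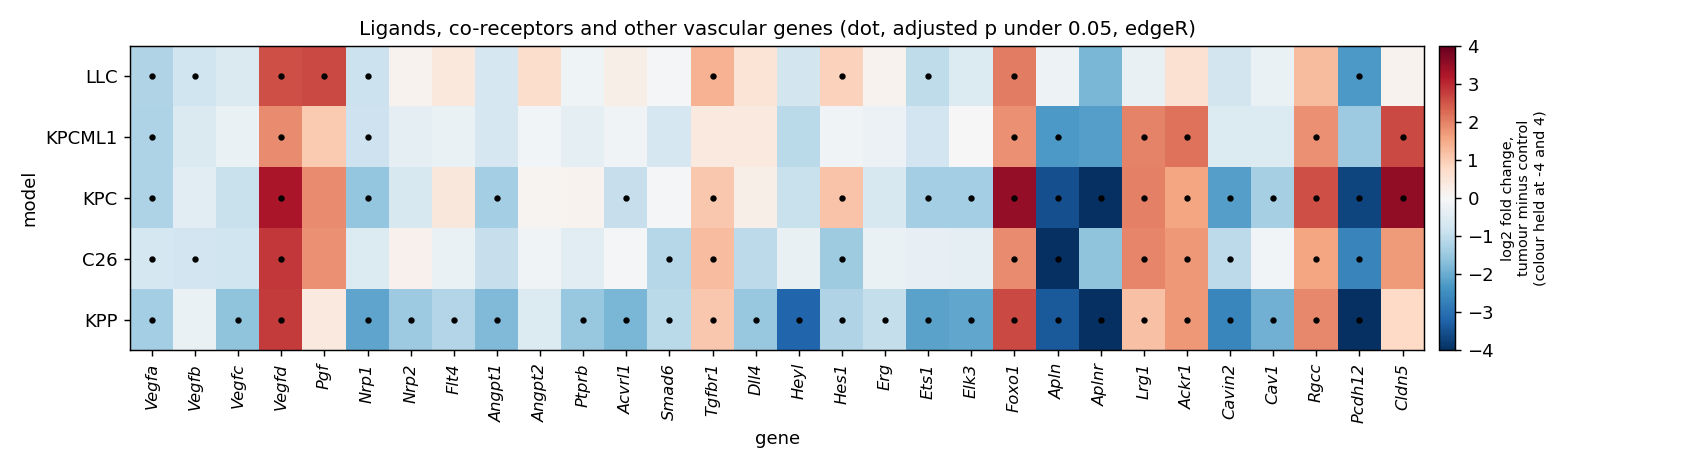
Log2 fold change, tumour minus control, of 30 genes of the vascular lists in the 5 models, in colour held at -4 and 4, with a dot where the edgeR adjusted p is under 0.05; the 30 were picked after their values were seen. Vegfa is blue and Vegfd and Foxo1 are red, each with a dot, in all 5 rows.

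Sox18 was the member that most separated KPC from KPCML1, which were set against the same Matrigel controls. Sox18 was at 0.609 and 1.63 CPM in KPC muscle and at 8.33 and 11.2 CPM in KPCML1 muscle (log2 KPC minus KPCML1 -3.13 ± 0.45), and Sox7 at 0.883 and 1.14 CPM in KPC and 2.72 and 2.78 CPM in KPCML1 (-1.44 ± 0.28). These were the 2 of 10 genes past the threshold, where 3.05% of all genes were called lower and 2.94% higher in KPC; the libraries are those that chose the genes, so the count is a description. The number of injected cells and the cell line cannot be told apart in it. Sox7 lost its call without either KPCML1 library or KPC replicate 2.

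Markers of other cell types also differed in these muscles, and their part in the results above was not tested. In KPP tumour muscle 5 of 8 pericyte genes were called lower, with a summed level of 408 to 500 CPM, against 616 to 622 CPM in KPP controls, and 4 of 4 smooth muscle genes, at 36.8 to 44.1 CPM, against 68.5 to 103 CPM. Of all genes, 19.3% were called lower in KPP. Leukocyte and macrophage genes summed to 95.6 to 96.7 CPM in KPP tumour muscle, against 50.8 to 84.2 CPM in KPP controls, and to 111 to 118 CPM in KPCML1 muscle, against 30.6 to 56.2 CPM in Matrigel controls. Of these 7 genes, 1 was called higher and 1 lower in KPP, and 3 higher and 0 lower in KPCML1. Of all genes, 17.4% were called higher in KPP and 4.16% in KPCML1. Myofibre genes overlapped, at 115838 to 117093 CPM in KPP tumour muscle, against 107066 to 128478 CPM. The summed level of neutrophil genes was above controls in all 5 models, reaching 41.8 to 62.3 CPM in KPC muscle, against 0.478 to 1.04 CPM in Matrigel controls. Leukocytes and platelets also carry Pecam1. Of 3 platelet genes tested, 1 was called higher in KPCML1 and 1 in KPC, against 4.16% and 15.3% of all genes. The summed level of erythroid genes was above controls in LLC, KPCML1 and KPC muscle. It was 2969 to 6831 CPM in KPCML1, against 358 to 399 CPM in Matrigel controls. None of the 9 genes of the endothelial marker list, which holds 6 of the 10 genes, was at 0 throughout a comparison; its sum was 129 to 171 CPM in KPP tumour muscle, against 305 to 316 CPM in KPP controls.

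Genes whose pattern was most like the mean of the 3 SoxF factors, over 8680 genes and 18 libraries each set against its own controls, were Crip2 (Pearson r = 0.97), Ehd2 (0.97), Meox2 (0.97), Sipa1 (0.97), Hspa12b (0.96) and Lasp1 (0.95). Those most like the mean of Pecam1 and Cdh5 were Robo4 (0.94), Tanc1 (0.93), Pdgfrb (0.93), Pear1 (0.92), Cish (0.92) and Fyn (0.92). Cdh5 itself followed Kdr most closely of the members (r = 0.92) and Pecam1 followed Cdh5 with r = 0.63. These likenesses are descriptions over libraries that share controls and scaling. Sox17 followed neither Sox7 (r = 0.04) nor Sox18 (r = 0.01), so likeness to the SoxF mean is not likeness to each factor.

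The authors' deposited tables gave their own log2 fold changes for these comparisons; the one set against KPCML1 carries another cell number in its name than the labels give. At a DESeq2 adjusted p under 0.05 the authors' deposited tables called 0 higher and 7 lower in KPP and 1 higher and 2 lower in KPC. They called 3 higher and 2 lower in KPCML1, 0 higher and 3 lower in C26 and 0 higher and 1 lower in LLC. The share of all genes called in those tables is not given here, and nothing is read from these counts. The log2 fold changes of the authors' deposited tables differed from those above by at most 0.376 over 50 values, the largest gap being for Tek in KPCML1 (-0.13 in the authors' deposited table). Called in the authors' deposited tables and not by edgeR were Kdr in LLC, KPCML1 and C26, Cdh5 in C26, and Flt1, Pecam1 and Sox17 in KPCML1. Called by edgeR and not there were Flt1 and Pecam1 in KPP.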

How the data were processed

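Per the labels' protocols, snap-frozen TA muscle was taken into Trizol, and poly(A) RNA was made into directional libraries for paired-end sequencing. Reads were demultiplexed with bcl2fastq 2.20 and quantified with Salmon against mm10, and DESeq2 was used, per the submitters' processing notes; Salmon's version, transcript release and strand setting are not stated there, so sense and antisense reads may not have been told apart. The authors deposited estimated counts, TPM and effective lengths per transcript, and tables of their own comparisons with log2 fold changes, their standard errors and p-values.

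Deposited estimated counts were summed per gene over GENCODE M21 transcripts, matched by identifier without version (139958 of 140825 transcripts; the unmatched held 0.4115 to 0.6851% of each library), and rounded. They were fitted with edgeR 4.0.16 in R 4.3.3 (quasi-likelihood, 9 groups, TMM scaling, filterByExpr, Benjamini-Hochberg over 16096 genes, threshold 0.05); DESeq2 1.42.0 was an alternative. P-values measure the spread between libraries labelled as biological replicates. CPM used TMM-scaled library sizes. Transcript shares were tested by exact permutation within experiments over 3240 arrangements. The fits were tested on simulated data.

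The members, gene lists and tests were chosen with earlier results of these data known. The rule for naming list genes gave up to 3 called genes of smallest p in each list and model. It added every VEGF ligand and angiopoietin, Acvrl1, Dll4 and Erg. A gene named in one model is given in others too. Not all genes that the rule gave are described. Left out were Tgfbr2, Acvr2a, Bmp4, Rbpj, Foxc1 and Esm1, called higher, and Jag1 and Mef2c, called lower. Id1, Id2 and Id3 were chosen after their values were seen. Likeness was searched over tested genes of at least 5 mean CPM. Alternatives were RLE scaling, no filter, length-scaled counts, a replicate block, each experiment alone and leaving out each library. Salmon divides reads among near-identical transcripts, so its counts are estimates.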

Additional observations from a re-analysis of the deposited data

Results flagged for a closer look

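Among the members, 4 genes had both tumour libraries above both controls in some models and below them in others; these differences were not tested, because the same contrasts chose the genes. Sox17 was above in LLC (log2 0.42), KPCML1 (0.67), KPC (1.28) and C26 (0.54) and below in KPP (-0.81). Tek was above in KPCML1 (0.24) and below in LLC (-0.43), KPC (-0.4) and KPP (-1.86). Flt1 was above in LLC (0.27), KPCML1 (0.75) and KPC (0.6) and below in KPP (-0.81). Pecam1 was above in LLC (0.52), KPCML1 (0.75) and C26 (0.45) and below in KPP (-0.72).

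Of the vascular genes outside the members that the report's rule names, 16 differed among the 5 models in the joint edgeR test. The adjusted p was 0.0051 for Mmrn2, 0.0053 for Cavin2, 0.0058 for Hes1, 0.01 for Pcdh12, 0.012 for Apln, 0.013 for Nrp1, 0.014 for Acvrl1, 0.018 for Aqp1 and 0.021 for Cav1. It was 0.026 for Heyl, 0.026 for Lrg1, 0.033 for Ets1, 0.037 for Elk3, 0.043 for Fli1, 0.046 for Vwf and 0.048 for Ptprb. Fli1, an ETS factor, rose in C26 (log2 0.89 ± 0.26; held in 12 of 18 fits leaving out 1 library and lost without any C26 library or either LLC control) and stood at -0.74 ± 0.27 in KPC and -0.70 ± 0.27 in KPP. Vwf, the clotting factor that endothelium stores, rose in LLC (1.14 ± 0.35), a call held in 8 of 18 fits leaving out 1 library, being lost without any LLC, Matrigel control, KPCML1 tumour or KPP control library. It fell in KPP (-1.30 ± 0.37), in 16 of 18, the call being lost without KPP control replicate 1 or KPP tumour replicate 2. With 2 libraries a group, no single library could be tested as standing apart from its group.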

How the results depend on the processing

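With 2 libraries a group, counts of calls moved with the filter, the libraries fitted and the tool. The cause was not tested. The share of all genes called under these alternatives is not given, and nothing is read from the member counts. Called members, of 10, were 0 in LLC but 1 with no filter and 1 with the experiment alone; 1 in KPCML1 but 4 with no filter, 0 with the experiment alone and 2 with DESeq2; 1 in C26 but 3 with no filter, 3 with the experiment alone and 2 with DESeq2; and 2 between KPC and KPCML1 but 1 with the experiment alone. Called vascular list genes were 15 in LLC but 28 with no filter and 26 with the experiment alone; 13 in KPCML1 but 29 with no filter and 22 with DESeq2; 52 in KPP but 33 with the experiment alone; and 20 for the joint test among models but 66 with no filter and 13 with length-scaled counts. RLE scaling moved the median of all genes by under 0.05 log2 in every comparison.

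Leaving out 1 library gave 0 to 1 called members in LLC, 0 to 4 in KPCML1, 2 to 6 in KPC, 1 to 3 in C26, 7 to 9 in KPP, 1 to 4 between KPC and KPCML1 and 0 to 0 in both control contrasts. Called list genes ranged from 4 to 18 in LLC, 1 to 20 in KPCML1, 23 to 48 in KPC, 10 to 25 in C26, 34 to 54 in KPP and 9 to 36 among models. The tumour minus control share of the leading transcript ranged, in percentage points, from 3.39 to 7.60 for Sox17, -1.83 to -1.18 for Kdr, -6.63 to -3.77 for Flt1 and 2.60 to 6.24 for Pecam1, and these 4 passed without LLC control replicate 2. Of 1210 log2 values of single members under all alternatives, 1190 moved by less than 1 SD between replicates and 20 by more, most of them in KPC.

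Same-numbered libraries had deviations that correlated at 0.0095 in LLC, 0.093 in KPCML1, -0.052 in KPC, -0.075 in C26 and -0.17 in KPP. With 2 libraries a group, these values cannot show whether the numbers pair the samples, and the main fits used no pairing. With a replicate block the called members were 0 in LLC, 1 in KPCML1, 3 in KPC, 1 in C26 and 9 in KPP. Crossing the KPP control numbers, a choice made after seeing the data, gave 9 called members and 51 called list genes.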
